A study of Homo sapiens with 12 samples.

Results

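The cisplatin-resistant lung adenocarcinoma line A549/DDP was compared between its most perturbed and its unperturbed state. The perturbed state was the line carrying a short hairpin RNA against NRF2 (shNRF2) after 24 h in 4 µM gambogenic acid (GNA). The unperturbed state was the line with a control hairpin (shNC) after 24 h in the solvent DMSO. Each state had 3 bulk RNA-seq libraries, 6 of the 12 bulk libraries in the table. The genes described are those that passed a filter on low counts in these 6 libraries, 14823 of the 61510 genes counted. The other libraries, 3 of shNRF2 in DMSO (the hairpin alone) and 3 of shNC in GNA (GNA alone), were used to set each change beside the change each single perturbation gave.

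Both lines grew in medium containing 1 µg/ml cisplatin (DDP) and were treated at 70% confluence, so the controls carried a hairpin and had been kept in cisplatin as well. Each hairpin was represented by 1 line, and the labels do not say whether a line was a clone or a pool, or whether libraries of 1 group came from separate cultures. A p-value here thus reflects only how far libraries of a group differ, and that variation may be technical. Bulk RNA cannot tell a change in the share of cells from a change in RNA per cell. By its title the series is concerned with NRF2, HSF1 (heat shock factor 1) and HO-1 (heme oxygenase 1) in cells given GNA, a compound from gamboge resin.

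NRF2, encoded by NFE2L2, is the transcription factor that turns on enzymes for glutathione and thioredoxin synthesis and recycling, NADPH supply and detoxification of quinones and aldehydes through antioxidant response elements. Its inhibitor KEAP1 is mutated in A549 cells, so NRF2 protein is abundant there without added stress. HSF1 drives heat shock proteins when unfolded proteins accumulate, and ATF4 drives the integrated stress response when translation initiation factor 2 is phosphorylated. HMOX1, encoding heme oxygenase 1, can be driven by several of these factors.

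The control libraries held 15118635 to 17192671 counts and the libraries of shNRF2 with GNA 12848607 to 15637944. The A549 marker list, 8 epithelial and aldo-keto reductase genes, summed to between 21650 and 22690 counts scaled to the library total (CPM) in the controls and between 10900 and 11360 with both perturbations. Of 7 genes of that list tested, 5 fell and CDH1 rose. The falls were AKR1B10, AKR1C1 and NQO1, described below, and the keratins KRT8 and KRT18, with log2 changes of -0.75 and -0.63. Alveolar type 2 markers (10 genes) summed to 17.0 to 22.9 CPM in the controls and 34.3 to 37.2 CPM with both, with SFTPA1 and SFTPA2 at 0. Only 2 of them, LAMP3 and ABCA3, passed the count filter, with log2 changes of 2.51 and 0.54. Markers of fibroblasts, endothelium and leukocytes (16 genes) summed to 9.91 to 10.8 CPM and 8.98 to 10.6 CPM. Control replicate 1 had a higher share of mitochondrially encoded mRNA (5.98% of counts) than the other controls (4.71% and 4.95%) and the libraries of shNRF2 with GNA (4.20% to 4.23%). End-state counts of a gene list are given without it where they move by over 1.5 times.

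The targeted gene was lower in every library of the hairpin line. NFE2L2 (chr2:177227595-177392697, minus strand) was at 81.6, 77.7 and 74.1 CPM in the controls and at 46.2, 47.5 and 43.6 CPM with hairpin and GNA. The groups did not overlap. The log2 fold change was -0.76 ± 0.064 (SE; edgeR quasi-likelihood test, adjusted p = 2e-10), beside -0.63 with the hairpin alone and 0.17 with GNA alone. KEAP1, the adaptor that hands NRF2 to a ubiquitin ligase, was at 27.0, 25.5 and 26.9 CPM in the controls and at 19.3, 17.6 and 18.2 CPM with both, a log2 change of -0.53 ± 0.087. Of 12 tested partners and regulators of NRF2, 5 rose and 6 fell, beside 25.9% and 25.8% of all genes tested. Of the small MAF proteins that pair with NRF2 on DNA, MAFF and MAFK rose and MAFG was not called (log2 change 0.15). MAFF went from 14.2, 12.7 and 14.1 CPM to 40.1, 40.0 and 37.6 CPM (log2 fold change 1.52). MAFK rose by 1.02 on the log2 scale. NFE2L1, a related factor that controls proteasome genes, rose by 0.74. The ligase subunits CUL3 and RBX1 fell by 0.44 and 0.54.

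Across all genes, 3832 were higher with both perturbations (25.9% of those tested) and 3818 were lower (25.8%). Calls are at an edgeR p-value under 0.05 after Benjamini-Hochberg adjustment over these genes, and 51.6% of them were called in one direction or the other. The 3 libraries of one group lay wholly above or below the 3 of the other for 57.7% of genes, whether called or not. The change was at least 2-fold for 882 of the genes called higher (5.95% of those tested) and for 562 of those called lower (3.79%). For comparison, the hairpin alone gave 2658 higher (17.9%) and 2800 lower (18.9%), and GNA alone gave 2349 higher (15.8%) and 2478 lower (16.7%). These 3 comparisons share the control libraries. Scaling to library totals in place of TMM factors raised the median of all genes by 0.11 on the log2 scale and made the end state 5140 higher against 2817 lower, so that 64.6% of calls were higher instead of 50.1%. Small shared changes of a gene group are read against that shift. Counts of called genes in a list are read against the 25.9% higher and 25.8% lower over all genes.

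**Figure D1:**
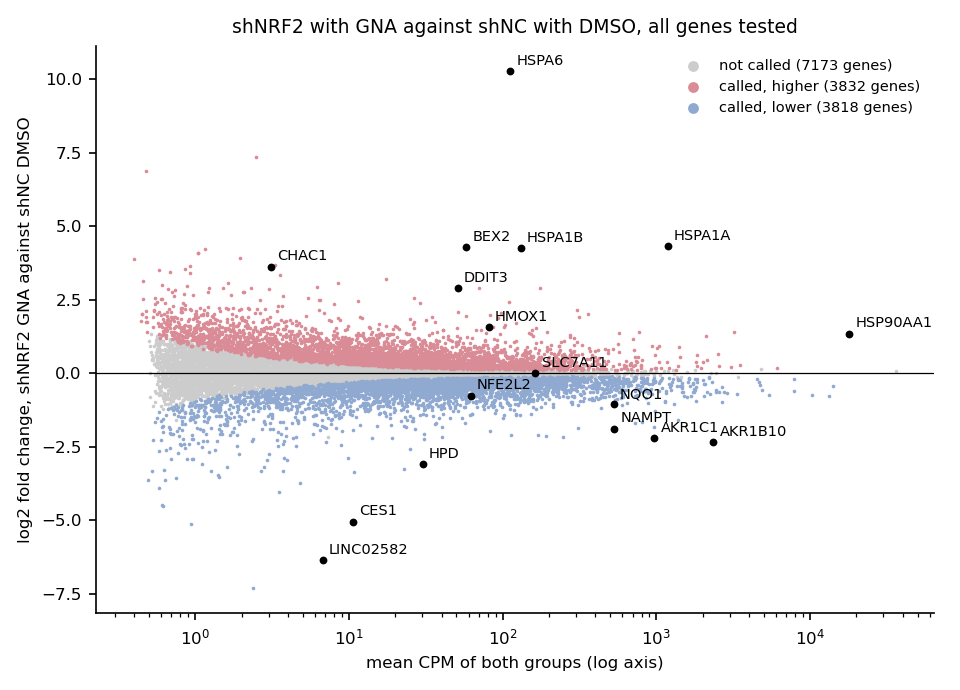
Mean level against log2 fold change of every gene tested, shNRF2 with GNA over shNC with DMSO, with genes called higher or lower in colour. Named points include HSPA1A at 4.33, AKR1B10 at -2.35 and CES1 at -5.05, and rises and falls are nearly equal in number (3832 and 3818).

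The largest rise belonged to HSPA6 (chr1:161524540-161526910, plus strand), a strictly stress-inducible heat shock protein. It had 4, 3 and 1 counts in the control libraries and 3046, 3465 and 3620 with both perturbations, or 219 to 230 CPM. No fold is given, because the control counts are near the limit of detection. BEX2 rose from 4.48, 6.12 and 6.18 CPM to 115, 110 and 106 CPM (log2 fold change 4.29), and its neighbour on the X chromosome, BEX4, by 3.67. ULBP1, a stress ligand that natural killer cells recognise, rose by 3.05 on the log2 scale. TNC, the matrix protein tenascin C, rose by 3.35, beside 3.34 with the hairpin alone.

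Several of the largest falls were genes that the hairpin alone had already brought close to 0. The long non-coding RNA LINC02582 had 194, 229 and 193 counts in the controls and 4, 0 and 3 with both (log2 fold change -6.36). CES1, a carboxylesterase of the liver and lung, fell from 20.04, 21.3 and 20.7 CPM to 0.377, 1.01 and 0.431 CPM (log2 fold change -5.05, and -5.33 with the hairpin alone). MAP2, a microtubule-associated protein, went from 40.8, 42.8 and 40.9 CPM to 4.30, 4.68 and 4.01 CPM. Its log2 change was -3.26 with both, -3.92 with the hairpin alone and 0.82 with GNA alone. GAS2 fell by 3.75, the keratin KRT6A by 3.35 and the annexin ANXA10 by 3.34. UGT1A9 fell by 2.97 on the log2 scale, and it shares exons with the other UGT1A genes.

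Most enzymes of the NRF2 program fell. Of 26 tested quinone, aldo-keto and xenobiotic enzymes, 21 fell and 2 rose (NQO2 and ABCC3), with a median log2 change of -0.75 beside 0.02 for all genes. The hairpin alone lowered 18 and GNA alone 12 of them. The same direction held with library totals, with 17 lower and 4 higher. Promoters of glutathione and NADPH genes are shown because the antioxidant response element is the site NRF2 binds. Its core was searched as TGACNNNGC and its reverse complement GCNNNGTCA in the 250 bases before each listed start in RefSeq (GRCh38.p14). The core was found for 6 of the 15 glutathione genes with a promoter entry (40.0%), 4 of 13 NADPH genes (30.8%) and 5 of 20 in the quinone list (25%), against 15.8% of the 10837 tested genes with an entry and 13.2% of all 27305. It was found for 1 of 7 thioredoxin genes (14.3%), 1 of 18 heme and iron genes (5.56%) and 14.1% of the genes lower at least 2-fold. Other lists reached shares like those of the NADPH and quinone lists, with 31.2% of drug efflux and cisplatin handling genes (5 of 16). DNA replication genes had 26.9%, p53 targets 26.3% and heat shock genes 24.2%. Capitals mark the match in GPX2 (chr14:64942839-64942887, minus), GCLM (chr1:93909436-93909484, minus) and ME1 (chr6:83431160-83431208, minus), each 5′ to 3′ on the gene's strand.
GPX2: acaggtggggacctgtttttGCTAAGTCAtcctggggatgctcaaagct
GCLM: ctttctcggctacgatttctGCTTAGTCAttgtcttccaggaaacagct
ME1: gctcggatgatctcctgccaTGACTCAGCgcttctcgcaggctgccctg

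AKR1B10 (chr7:134527592-134541408, plus strand), an aldo-keto reductase that clears retinal and lipid aldehydes, was at 3789, 4013 and 3962 CPM in the controls and at 771, 782 and 752 CPM with both perturbations. The log2 fold change was -2.35 ± 0.045 (edgeR adjusted p = 2.86e-23), made up of -1.94 with the hairpin alone and -0.40 with GNA alone. GPX2, a glutathione peroxidase, behaved in the same way, from 251, 298 and 275 CPM to 63.1, 63.2 and 65.1 CPM. Its log2 change was -2.11 ± 0.060, with -1.54 for the hairpin and -0.58 for GNA. For both genes all 3 libraries of the end state lay far below all controls, and the departure of the end state from the sum of the single effects was -0.01 and 0.01.

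AKR1C1, which reduces steroids and aldehydes, fell by 2.21 on the log2 scale, from 1530, 1684 and 1556 CPM to 326, 347 and 357 CPM. AKR1C2 and AKR1C3 had log2 changes of -0.21 and -1.02. AKR1C1, AKR1C2 and AKR1C3 are similar in sequence and reads may be split between them, so their sum is also given. It was 4708 ± 254 CPM (SD, n = 3) in the controls and 2608 ± 51.4 CPM with both. The hairpin alone gave 3904 ± 177.5 CPM and GNA alone 3617 ± 145.4 CPM. NQO1, the quinone reductase used as a standard NRF2 readout, went from 679, 730 and 729 CPM to 347, 345 and 334 CPM (log2 fold change -1.06 ± 0.048, adjusted p = 1.19e-15). PTGR1, a prostaglandin reductase, fell by 1.68.

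In some NRF2 targets GNA and the hairpin pulled in opposite directions and the end state was less far below the control than the hairpin alone. CYP4F11, a fatty acid hydroxylase, was at 53.2, 47.1 and 48.5 CPM in the controls and at 11.1, 11.7 and 12.6 CPM with both. Its log2 change was -2.07 with both, beside -3.02 with the hairpin and 0.68 with GNA. GCLM, the regulatory subunit of the first enzyme of glutathione synthesis, went from 52.8, 47.6 and 48.9 CPM to 30.9, 30.4 and 31.1 CPM (log2 fold change -0.69, with -1.15 and 0.32). OSGIN1, an oxidative stress-induced growth inhibitor, ended at 17.4, 17.3 and 16.6 CPM from 21.2, 21.5 and 20.5 CPM. Its log2 change of -0.30 (edgeR adjusted p = 0.0131) stood beside -1.60 with the hairpin and 0.86 with GNA.

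Of 19 glutathione and cystine genes, 12 fell and 3 rose, with a median log2 change of -0.38. The fallers included GSR, which regenerates reduced glutathione (-1.09), and the glutaredoxin GLRX (-1.15). The 3 rises were CHAC1, which degrades glutathione (3.63), SLC3A2, the heavy chain of the cystine importer (1.38), and GSS (0.43). SLC7A11, the light chain of that importer, was at 167.7, 163.3 and 158.6 CPM in the controls and at 169.6, 162.0 and 156.2 CPM with both. The groups overlapped and the fitted log2 change was -0.01 (95% interval -0.12 to 0.10), with a sign that turned under library totals (0.11). The hairpin alone gave -0.18 and GNA alone 0.53, and the end state lay 0.36 below their sum (adjusted p = 0.00136).

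Of 10 thioredoxin and peroxiredoxin genes 9 fell, with a median of -0.64. TXN, thioredoxin itself, fell by 1.53 and PRDX1 by 1.15, while TXNRD1, the reductase that recharges thioredoxin, went from 2643, 2871 and 2795 CPM to 1697, 1722 and 1675 CPM (log2 fold change -0.71). PRDX5 rose by 0.16, a call that was lost without control replicate 1 (0.10, edgeR adjusted p = 0.152), and also without control replicate 3 (0.14, adjusted p = 0.0862) or replicate 1 or 2 of shNRF2 with GNA (0.15 each, adjusted p = 0.0664 and 0.0732). SRXN1, which repairs over-oxidised peroxiredoxins, had 3.24, 4.28 and 2.24 CPM in the controls and 1.96, 1.71 and 0.986 CPM with both. Its log2 change of -1.09 (adjusted p = 0.023) no longer passed without control replicate 2 (-0.83, adjusted p = 0.127) or without replicate 3 of shNRF2 with GNA (-0.84, adjusted p = 0.12). DESeq2 gave an adjusted p of 0.0591. In the NADPH list 7 of 14 fell and IDH1 rose (0.18, and 0.15 with edgeR adjusted p = 0.051 without control replicate 3). TKT, the transketolase of the pentose phosphate pathway, fell by 0.87, beside -0.07 with the hairpin alone and -0.61 with GNA alone.

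**Figure D2:**
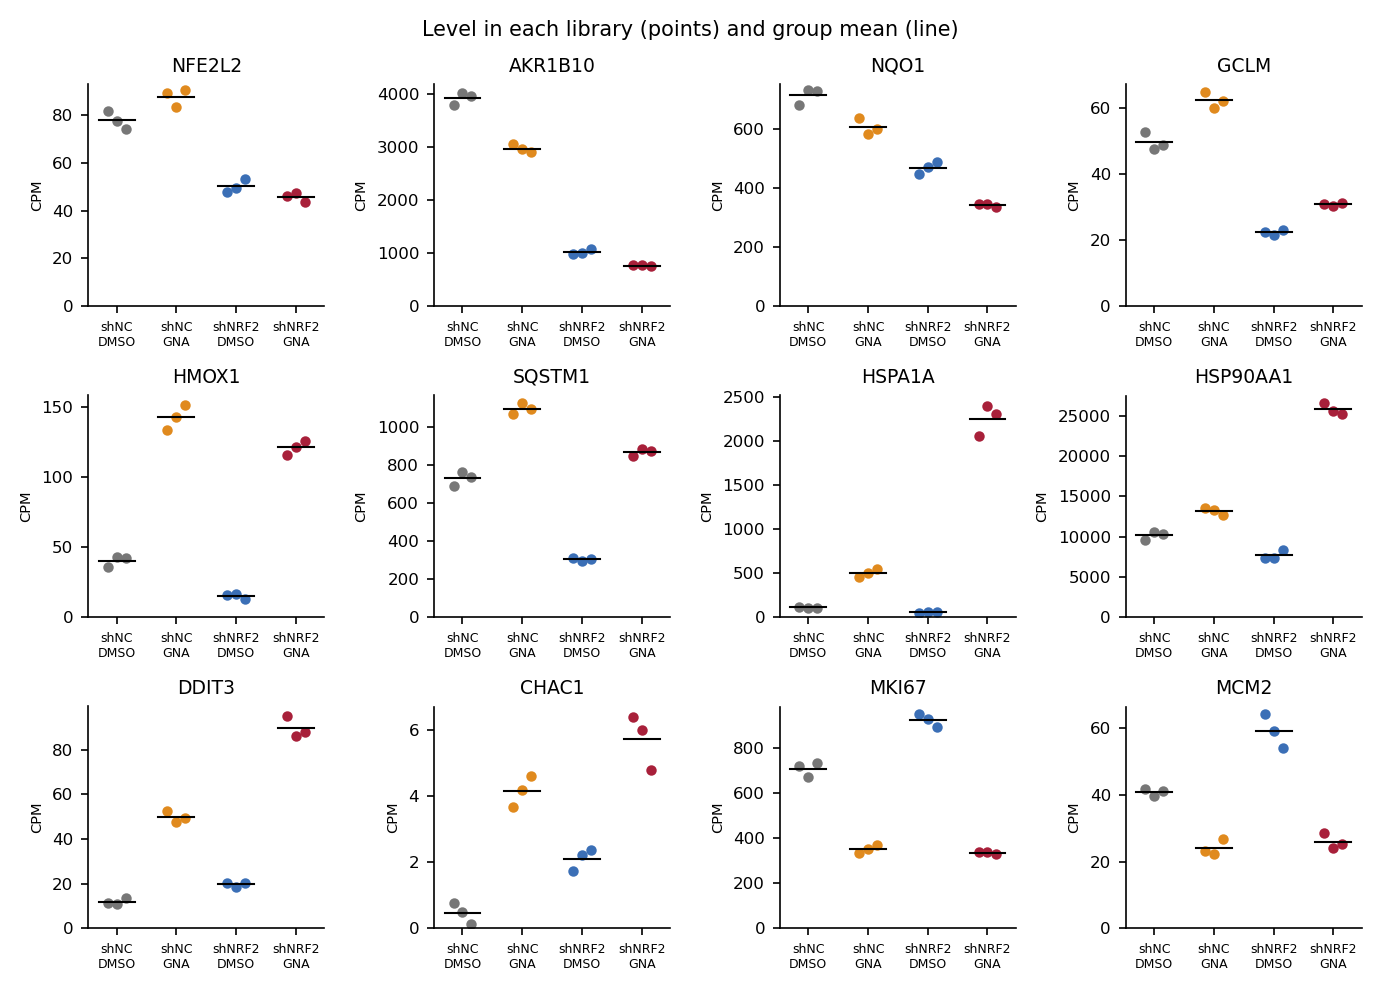
CPM per library of 12 genes in the 4 groups, each point a library and each line the group mean, on linear axes from 0. AKR1B10, NQO1 and GCLM were lowest in the hairpin line, HMOX1 and SQSTM1 were lowest with the hairpin alone and above the controls with both, and HSPA1A reached 2064 to 2404 CPM only in shNRF2 with GNA.

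HMOX1 (chr22:35380361-35394214, plus strand), which breaks heme down to biliverdin, iron and carbon monoxide, went against the NRF2 enzymes. It was at 36.2, 43.2 and 42.2 CPM in the controls and at 116, 121 and 126 CPM with both perturbations, with no overlap. The log2 fold change was 1.58 ± 0.074 (edgeR adjusted p = 2.39e-15), beside -1.41 with the hairpin alone and 1.81 with GNA alone. The end state lay 1.18 above their sum (adjusted p = 8.17e-08). Within 22 heme and iron genes, 4 rose and 10 fell, beside 25.9% and 25.8% of all genes tested. SLC48A1, a heme transporter, rose by 0.67, and the iron exporter SLC40A1 fell by 1.21. BLVRB, a biliverdin reductase, was at 77.6, 79.4 and 90.1 CPM in the controls and at 86.9, 78.0 and 88.7 CPM with both, groups that overlapped. Its log2 change was 0.04 with both, -0.88 with the hairpin and 0.47 with GNA.

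SQSTM1, encoding p62, an autophagy receptor that also sequesters KEAP1, showed the same course. It was at 689, 762 and 736 CPM in the controls and at 847, 883 and 875 CPM with both. The log2 change was 0.25 ± 0.045 (adjusted p = 4.26e-05), with -1.26 for the hairpin alone and 0.59 for GNA alone, and the end state lay 0.93 above the sum. Of 24 autophagy and lysosome genes, 7 rose and 4 fell, beside 25.9% and 25.8% of all genes tested. With library totals 13 of them rose and 2 fell. MAP1LC3B and GABARAPL1, which coat autophagosome membranes, rose by 1.06 and 0.75. The cathepsins went opposite ways, CTSD up by 0.90 and CTSB down by 0.98 on the log2 scale.

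Heat shock genes rose in the end state and lay above the sum of the single effects. Of 39 tested genes of the heat shock list, which holds heat shock factors, chaperones, co-chaperones and other heat shock targets, 24 rose and 6 fell (30 and 2 with library totals), with a median log2 change of 0.25. With the hairpin alone 5 rose and 25 fell, and with GNA alone 18 rose and 13 fell. The end state lay above the sum for 30 of the 39 and below it for BAG1 and FKBP5, where 3.6% and 3.68% of all genes lay above and below. The median departure was 0.62 on the log2 scale, beside -0.01 for all genes. Promoters are shown because HSF1 binds repeats of nGAAn. The heat shock element was searched on both strands of the 250 bases before each start as 3 repeats: TTC, 2 free bases, GAA, 2 free bases and TTC. It was found for 7 of 33 genes of the list (21.2%), which were HSPA6, HSPA8, HSP90AA1, HSP90AB1, HSPD1, DNAJB6 and CHORDC1, against 0.489% of tested genes and 0.557% of all genes in the promoter table. Capitals mark the matched stretch in HSPA6 (chr1:161524446-161524498, plus), HSP90AA1 (chr14:102087100-102087152, minus) and CHORDC1 (chr11:90223067-90223129, minus), where several matches overlap.
HSPA6: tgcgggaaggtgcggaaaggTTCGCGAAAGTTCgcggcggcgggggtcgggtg
HSP90AA1: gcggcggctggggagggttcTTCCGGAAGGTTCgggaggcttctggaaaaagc
CHORDC1: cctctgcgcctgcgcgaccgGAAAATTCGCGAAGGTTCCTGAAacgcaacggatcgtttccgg

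HSPA1A (chr6:31815464-31817946, plus strand), the inducible HSP70, was at 117, 112 and 109 CPM in the controls, 54.6, 58.9 and 61.7 CPM with the hairpin alone, 464, 507 and 548.9 CPM with GNA alone, and 2064, 2404 and 2309 CPM with both. No 2 groups overlapped. The log2 fold change of the end state was 4.33 ± 0.067 (edgeR adjusted p = 2.12e-25), and the end state lay 3.10 ± 0.090 above the sum of -0.95 and 2.17. HSPA1B is a near-identical copy, and the pair summed to 125 ± 3.43 CPM (SD, n = 3) in the controls and 2502 ± 184 CPM with both.

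HSP90AA1 (chr14:102080738-102139699, minus strand), the inducible HSP90, had 9577, 10520 and 10360 CPM in the controls and 26550, 25630 and 25170 CPM with both. These libraries did not overlap, and the log2 change was 1.34 ± 0.050 (edgeR adjusted p = 2.69e-17), beside -0.40 and 0.37 for hairpin and GNA alone. HSPH1, an HSP110 nucleotide exchange factor, rose by 1.39 from single effects of -0.34 and 0.26. The co-chaperones DNAJB1 and BAG3 rose by 2.16 and 2.02 and lay 1.66 and 1.76 above their sums. The small heat shock proteins HSPB1, HSPB8 and CRYAB rose by 1.41, 1.78 and 2.94.

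Chaperones that are made without stress differed in direction. HSPA8, the constitutive HSP70, was at 2275, 2374 and 2293 CPM in the controls, 1571, 1635 and 1690 CPM with the hairpin alone, 2360, 2306 and 2266 CPM with GNA alone and 2841, 2702 and 2742 CPM with both. The end state was highest and did not overlap the controls (log2 fold change 0.26), and it lay 0.76 above the sum. HSP90AB1 and DNAJA1 each rose by 0.17 and lay 0.67 and 0.87 above, while HSPA14, another HSP70 relative, fell by 0.62. HSF1 itself was at 28.3, 25.5 and 29.9 CPM in the controls and at 29.7, 24.4 and 29.2 CPM with both. Those libraries overlapped, the fitted change was -0.01 on the log2 scale, and its sign turned with library totals (0.10).

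**Figure D3:**
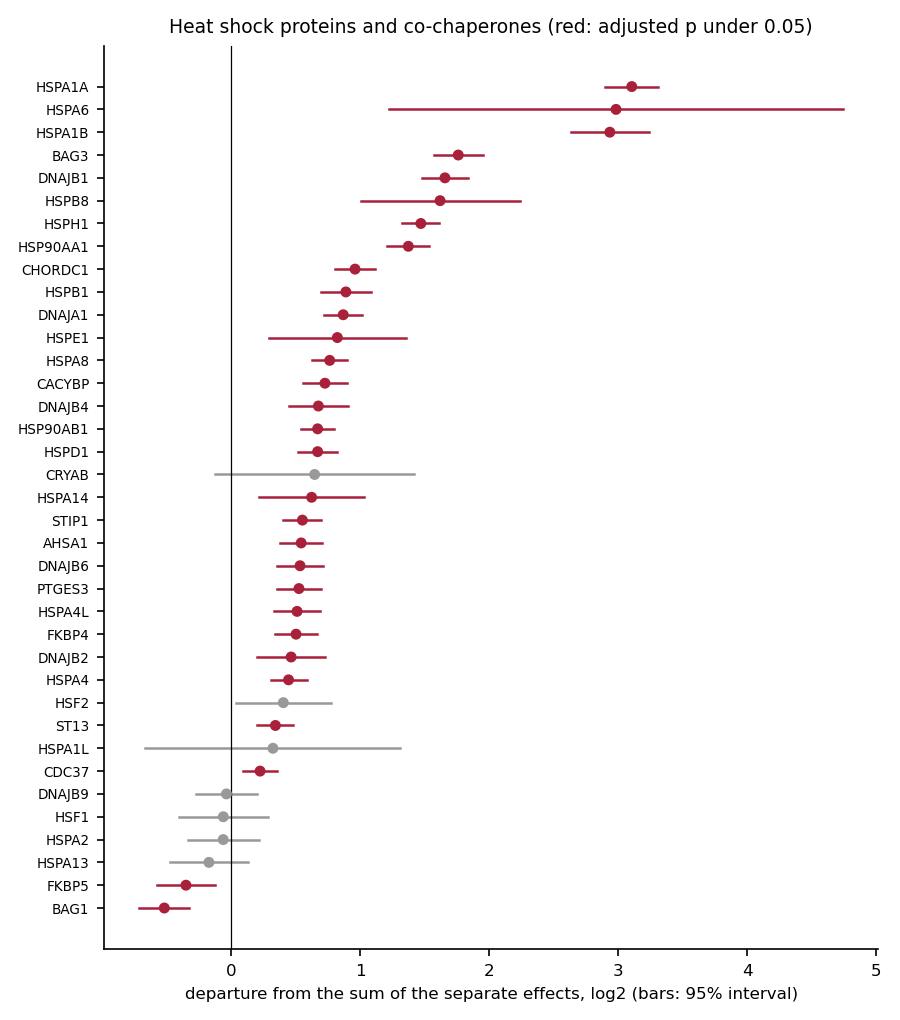
Departure of the end state from the sum of the hairpin effect and the GNA effect for the 37 heat shock factors, chaperones and co-chaperones of the list, in log2 units with 95% intervals, red where the adjusted p was under 0.05. HSPA1A lay at 3.10, the constitutive HSPA8 at 0.76, and 28 genes were called above the sum.

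The integrated stress response rose almost as a whole. Of 28 tested genes, 26 were higher, ATF5 fell by 0.60 and CEBPB was not called (-0.12), with a median log2 change of 1.35. The hairpin alone raised 17 and GNA alone 27. The end state lay below the sum of both for 10 of the 28 and above it for PPP1R15A and NIBAN1. DDIT3 (chr12:57516588-57521737, minus strand), encoding the pro-apoptotic factor CHOP, was at 11.2, 11.1 and 13.6 CPM in the controls and at 95.2, 86.4 and 87.8 CPM with both. Its log2 change of 2.91 ± 0.082 (edgeR adjusted p = 5.72e-20) was made up of 0.73 with the hairpin and 2.06 with GNA, and the departure was 0.12 (adjusted p = 0.633). NUPR1, a stress-induced chromatin protein, rose by 2.89 and PCK2, mitochondrial phosphoenolpyruvate carboxykinase, by 2.39. ATF4, whose protein is controlled largely in translation, rose by 0.24, from 322, 342 and 336 CPM to 392, 396 and 394 CPM.

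CHAC1 had 11, 8 and 2 counts in the controls and 85, 95 and 78 with both, a log2 change of 3.63 ± 0.31. ASNS, asparagine synthetase, rose by 2.19 from 0.276, 1.22 and 1.18 CPM, so both folds rest on few control counts. The element bound by ATF4 with C/EBP proteins was searched as TGATGNAA and TTNCATCA. It was found for 4 of 24 genes of the list (16.7%), ATF3, CHAC1, CEBPG and ASNS. The share was 2.49% of tested genes and 3.89% of all genes with a promoter entry. Among genes changed at least 2-fold, 2.79% of those higher and 4.71% of those lower had it. The share was higher for the cytosolic aminoacyl-tRNA synthetases, 18.8% (3 of 16). Some lists outside this response held similar shares, with 12.5% for the interferon list (2 of 16) and 16.7% for the BCL2 list (2 of 12). Most other lists were lower. The matches in ASNS (chr7:97872449-97872496, minus), ATF3 (chr1:212565196-212565243, plus) and CHAC1 (chr15:40953242-40953289, plus) are in capitals.
ASNS: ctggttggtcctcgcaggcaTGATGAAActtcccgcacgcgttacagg
ATF3: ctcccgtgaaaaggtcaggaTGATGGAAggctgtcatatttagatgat
CHAC1: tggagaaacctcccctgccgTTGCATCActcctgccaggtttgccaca

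The 20 cytosolic aminoacyl-tRNA synthetases, which charge transfer RNAs, divided into 10 that rose and 8 that fell (12 and 4 with library totals). AARS1, MARS1 and GARS1 rose by 1.19, 1.05 and 0.97, and KARS1 and RARS1 fell by 0.42 and 0.39. Among 23 ER chaperones and genes of the unfolded protein response, 14 rose and 5 fell. HSPA5, the ER HSP70 also called BiP, went from 1310, 1118 and 1240 CPM to 3043, 2888 and 2970 CPM (log2 fold change 1.28), with 0.64 for the hairpin and 0.23 for GNA. ERN1, the stress sensor IRE1, rose by 1.91, the sum of 0.99 and 0.91. HERPUD1, of ER-associated degradation, rose by 1.14, less than with the hairpin alone (1.31). The secreted or luminal proteins SDF2L1, CRELD2 and MANF, which rose with the hairpin alone by 0.45, 0.51 and 0.29, ended 0.60, 0.51 and 0.33 below the control on the log2 scale.

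Genes of cell division fell together. All 27 tested genes of mitosis and G2/M were lower, by 0.76 to 1.70 on the log2 scale with a median of -1.09 (26 without control replicate 1). Of 31 genes of DNA replication and S phase 29 were lower, with a median of -0.74, and PRIM1 and E2F2 were not called (-0.40 and -0.50). With the hairpin alone, the genes called in both lists had mainly gone the other way, 12 of 27 and 14 of 31 higher and 2 lower in each. The other genes of each list were not called, and the medians were 0.20 and 0.15. GNA alone lowered 26 and 29. The end state lay below the sum for 13 mitotic and 4 S phase genes. MKI67, the proliferation marker Ki-67, was at 719, 669 and 732 CPM in the controls, 952, 929 and 890 CPM with the hairpin alone, 332, 349 and 371 CPM with GNA alone, and 338, 338 and 329 CPM with both. The controls and the end state did not overlap, and the log2 change was -1.08 ± 0.049 (edgeR adjusted p = 1.31e-15).

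Both GNA groups had Ki-67 levels that overlapped, although the hairpin line had started higher. MCM2, a subunit of the replicative helicase, followed the same course, from 41.6, 39.7 and 41.2 CPM in the controls to 28.5, 24.0 and 25.4 CPM (log2 fold change -0.66, with 0.54 for the hairpin and -0.76 for GNA). CDK1, the kinase that starts mitosis, fell by 1.38, KIF20A, a kinesin of cytokinesis, by 1.61, and RRM2, a ribonucleotide reductase subunit, by 1.40. CDKN1A, the inhibitor p21, rose by 0.31. The cell cycle homology region, which the DREAM and MuvB complexes bind, was searched as TTTGAA and TTCAAA. It was found for 12 of 21 mitotic genes with a promoter entry (57.1%), against 12.2% of tested genes and 16.1% of all genes in the table. Only 1 of 26 DNA replication and S phase genes had it (3.85%). The share was 24.7% of genes lower at least 2-fold, 7.98% of those higher, and 33.3% of the NAD list (3 of 9). Capitals mark it in CCNB2 (chr15:59105097-59105142, plus), PLK1 (chr16:23678840-23678885, plus) and BUB1B (chr15:40161026-40161068, plus), which fell by 1.06, 1.15 and 0.99.
CCNB2: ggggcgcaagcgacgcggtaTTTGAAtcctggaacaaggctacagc
PLK1: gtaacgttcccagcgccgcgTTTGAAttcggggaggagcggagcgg
BUB1B: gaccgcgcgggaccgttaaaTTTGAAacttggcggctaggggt

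Most ribosomal protein and chaperonin genes were lower in the end state, and proteasome genes were mixed. Of 32 cytosolic ribosomal protein genes, 28 fell, with a median of -0.35 (22 with library totals). Of the 8 subunits of the TRiC chaperonin, which folds actin and tubulin, 7 fell and TCP1 was not called (-0.02). GNA alone and the hairpin alone each lowered all 8, and the end state lay above the sum for 5 of them. Of 32 proteasome genes, 11 rose and 7 fell (9 and 7 without control replicate 1, 18 and 5 with library totals). Over all genes tested, 25.9% rose and 25.8% fell. The ATPase subunit PSMC4 rose by 0.43 and the core subunit PSMA3 fell by 0.54. The hairpin alone had lowered 26 proteasome genes, and the end state lay above the sum for 21. Of the 13 mitochondrially encoded mRNAs, 11 fell with a median of -0.46, beside 9 lower and 1 higher without control replicate 1, which had the highest share of these mRNAs among the 6 libraries compared. MT-ND3, a complex I subunit, fell by 0.84.

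**Figure D4:**
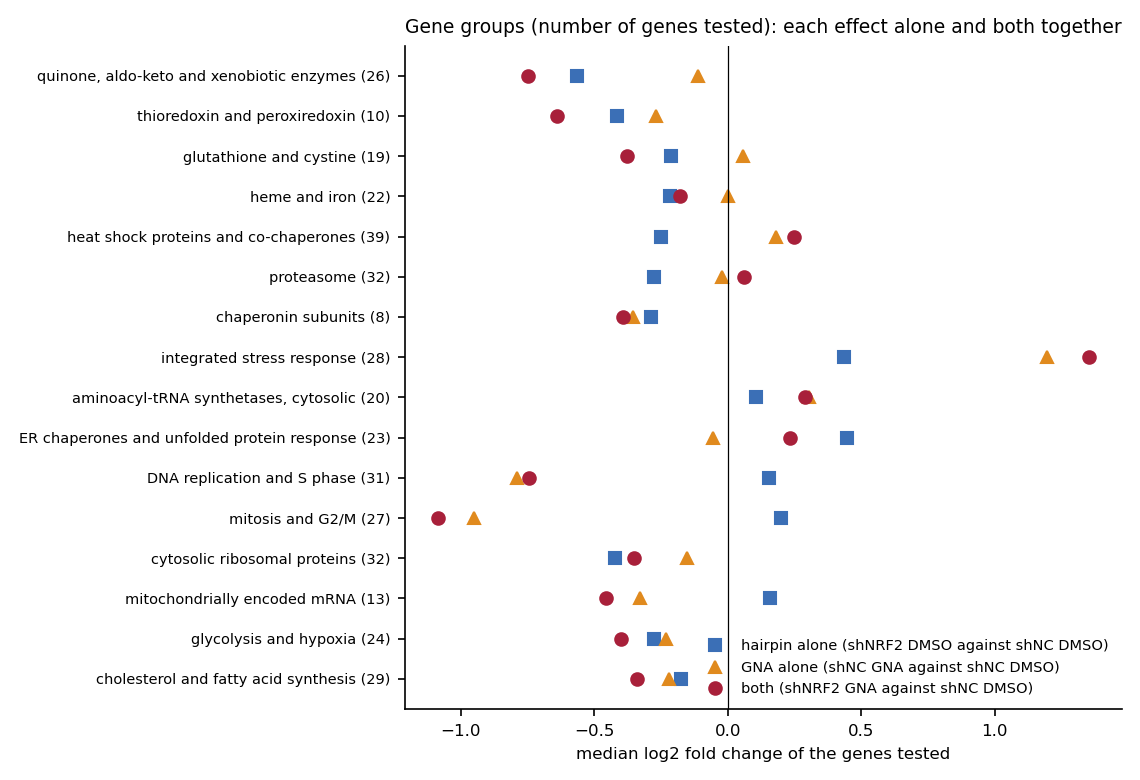
Median log2 fold change of 16 gene lists with the hairpin alone (squares), with GNA alone (triangles) and with both (circles), over the same controls. The integrated stress response lay highest with both (1.35) and mitosis lowest (-1.09), and the 2 single perturbations lay on opposite sides of 0 for mitosis (0.20 and -0.95).

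Genes on which hairpin and GNA pushed the same way show how far the effects added up. Among those raised by both, GPCPD1, which splits glycerophosphocholine, was at 38.2, 32.3 and 29.5 CPM in the controls and at 130, 127 and 138 CPM with both. The end state (1.98 on the log2 scale) was little above the hairpin alone (1.73) and lay 1.01 below the sum with GNA alone (1.26). ULBP1 likewise ended at 3.05 from 1.83 and 2.31, a shortfall of 1.08. Among those lowered by both, the chemokine gene CXCL11 went from 63.4, 71.2 and 64.0 CPM to 12.3, 16.1 and 15.3 CPM. Its change of -2.18 on the log2 scale was close to the sum of -1.08 and -0.90, with a departure of -0.20 (adjusted p = 0.414). MMP7, a matrix metalloproteinase, fell by 1.85, from single effects of -0.99 and -0.89 with a departure of 0.03.

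Where the single effects opposed each other, the end state fell on either side. IGFN1 was at 8.89, 9.30 and 6.31 CPM in the controls and at 6.34, 6.58 and 7.03 CPM with both, which overlapped. The hairpin alone gave -3.59 and GNA alone 1.42 on the log2 scale, and the end state -0.30 (adjusted p = 0.0893, and -0.45 with adjusted p = 0.0105 without control replicate 3). MYH14, a non-muscle myosin heavy chain, was at 21.7, 21.1 and 21.9 CPM in the controls, 4.70, 2.38 and 3.15 CPM with the hairpin alone, 50.8, 56.7 and 56.4 CPM with GNA alone and 40.8, 45.2 and 38.9 CPM with both. Its end state was clearly above the control (log2 fold change 0.95) and 2.24 above the sum. TNFSF15 and ADAM19, raised by the hairpin and lowered by GNA, stayed above the control. TNFSF15, encoding the cytokine TL1A, ended at 9.203, 7.53 and 8.20 CPM from 3.65, 3.18 and 2.24 CPM (log2 fold change 1.45, from 3.18 and -0.91). ADAM19, a membrane metalloproteinase, rose by 0.62 from 1.32 and -0.83.

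Over all genes the end state lay above the sum of the single log2 changes for 533 (3.6%) and below it for 546 (3.68%), 7.28% of genes in all. The departure is a difference of 4 group means and was called for fewer genes than any 2-group comparison above. ABCB1, the P-glycoprotein efflux pump, lay 1.08 above the sum: it was at 23.3, 17.3 and 21.1 CPM in the controls, 16.6, 15.8 and 18.1 CPM with the hairpin alone, 32.0, 33.7 and 27.5 CPM with GNA alone, and 53.4, 57.5 and 50.5 CPM with both (log2 fold change 1.39). The end state exceeded every other library. The efflux pump ABCG2 went the other way, from 13.1, 12.3 and 12.0 CPM to 4.601, 4.43 and 5.24 CPM (log2 fold change -1.38, and -1.82 with the hairpin alone). CCN2, a YAP target, lay 1.497 below the sum. It was raised by each perturbation alone (0.71 and 0.42) and was lower with both (-0.38, 17.8, 20.2 and 17.8 CPM against 13.7, 14.7 and 14.5 CPM). EGR1, an immediate early factor, lay 1.01 below, at 0.76 with both beside 1.19 and 0.58.

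Among 19 genes of drug efflux and cisplatin handling, 8 rose and 6 fell in all. Metallothionein MT2A, which binds metals including platinum, rose by 1.31. Of 25 p53 targets 9 rose and 6 fell, led by GDF15 (1.02) and PLK2 (-0.91). Of 14 BCL2 family genes 2 rose, BCL2L2 (0.23, and 0.17 with adjusted p = 0.093 without control replicate 2) and HRK (2.91), and 6 fell, with BCL2A1 lowest (-1.01). Of all genes tested, 25.9% rose and 25.8% fell.

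Most of the metabolic genes that changed were lower. Of 24 genes of glycolysis and hypoxia 16 fell and 4 rose, with a median of -0.40. LDHA, lactate dehydrogenase, fell by 0.95 and PGAM1 by 0.98, while EGLN3, a prolyl hydroxylase of HIF, fell by 2.87, of which -2.33 was seen with the hairpin alone. HK2, VEGFA, NDRG1 and P4HA1 rose, by 1.27, 0.87, 1.26 and 0.15. Of 29 genes of cholesterol and fatty acid synthesis 15 fell and 3 rose (12 and 6 with library totals), with HMGCS1, EBP and IDI1 lowest (-1.06, -1.05 and -1.02). NAMPT, the rate-limiting enzyme of NAD salvage, went from 838, 856 and 818 CPM to 215, 234 and 229 CPM. Its change of -1.89 was close to that with the hairpin alone (-2.13), GNA alone giving 0.05. Of the 12 NAD genes 5 rose, among them NMNAT3 (0.85), and 3 fell, NAMPT and QPRT (-1.815) among them. Over all genes tested, 25.9% rose and 25.8% fell.

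Inflammatory and matrix genes were mixed. Their counts stand beside 25.9% higher and 25.8% lower over all genes tested. In the NF-kB list 11 of 22 were lower and 7 higher (7 and 9 with library totals). CCL2, a monocyte chemokine, fell by 1.29, and NFKBIA, the inhibitor of NF-kB and one of its own targets, by 0.91, of which the hairpin alone gave -0.15 and GNA alone -0.07. Of 21 interferon-stimulated genes 11 fell and 5 rose (3 without replicate 3 of shNRF2 with GNA), the rises including STAT2 (1.52) and the falls IFI44 (-0.94). With limma on log2(FPKM + 1) 6 of them fell. Of 28 mesenchymal, matrix and YAP-target genes 11 rose and 9 fell. COL5A1, a fibrillar collagen chain, rose by 1.70, beside 1.54 with the hairpin alone, and FN1, fibronectin, by 0.94. SFN, the epithelial 14-3-3σ, fell by 1.83, less than with the hairpin alone (-2.04). CDH1, E-cadherin, rose by 1.02 and CDH2, N-cadherin, fell by 1.53. Other epithelial and mesenchymal genes went both ways. Of 16 epithelial junction and keratin genes 7 rose and 6 fell. The rises included OCLN (0.59) and CLDN1 (0.44), and the falls KRT8 (-0.75) and KRT18 (-0.63). Among mesenchymal genes, ZEB2 and AXL rose, by 0.69 and 0.95, while SNAI1 and VIM fell, with log2 changes of -1.07 and -0.22.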

How the data were processed

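Bulk RNA-seq of total RNA from A549/DDP cells was used. The authors deposited whole-number read counts per gene and, from the same libraries, FPKM values. The submitters' processing notes name GRCh38 and DESeq2 without role or version; for the aligner, the counter and the annotation, these sources give no name. FPKM as deposited equal counts per library total and a fixed length per gene for 100% of 11620 genes checked (tolerance 0.001). Genes with a minimum count of 10 and a total of 15 by filterByExpr in the 6 libraries compared were kept, and all 12 libraries entered 1 edgeR 4.0.16 quasi-likelihood fit (R 4.3.3, TMM, 8 residual degrees of freedom), with p-values adjusted by Benjamini-Hochberg over 14823 genes and calls under 0.05. The departure is the end state minus hairpin alone minus GNA alone, in log2. SEs and 95% intervals come from that fit. CPM use library totals multiplied by the TMM factors. An exact permutation test of 3 against 3 libraries cannot go below 0.1, so none is given.

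Members and gene lists were chosen with earlier results of these data known. Named genes were 25 fixed genes, the 10 largest rises and falls, up to 3 called genes each way per list, and the genes ranked highest for adding, opposing or departing effects. HSP90AA1, HSPH1, HSPA8, CYP4F11, PTGR1, OSGIN1, BLVRB, NUPR1, MKI67, CDK1 and the promoter genes were chosen after their values were seen. Same-numbered libraries did not deviate together (correlation over 0.1 in 0 of 18 pairs), so numbers were not used as pairs. In a simulation of the end state on 14823 genes, 14541 passed the filter. Of these, 58.8% of 97 genes changed 1.5-fold and 83.8% of 99 changed 2-fold were called, with 8.50% false among 153 calls. Far fewer genes were changed there than the 51.6% called in the data, so these rates may not carry over. Alternatives were other scalings, filters, DESeq2 1.42.0, limma 3.58.1 on log2(FPKM + 1) and log2(FPKM + 0.1), a replicate block and leaving out each library. Gene positions come from a GENCODE annotation of GRCh38. Single-cell data were not analysed here, and some genes are not reported here.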

Additional observations from a re-analysis of the deposited data

Results flagged for a closer look

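The effect of GNA differed between the hairpin line and the control line for 1079 genes by the edgeR interaction test, 533 above and 546 below the sum of the single effects. Among the genes tracked by name, these departures kept their direction and call in every alternative run: HSPA1A (3.10 on the log2 scale), HSPA1B (2.93), MYH14 (2.24), BAG3 (1.76), DNAJB1 (1.66), HMOX1 (1.18), ABCB1 (1.08), SQSTM1 (0.93), SLC7A11 (-0.36), CCN2 (-1.50) and C12orf75 (-2.31). The same held for GPCPD1 (-1.01) and HSPB8 (1.62).

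The departure of HSPA6, 2.98, rests on 4, 3 and 1 counts in the controls and 2, 0 and 1 with the hairpin alone. It depends on the prior count of the fit and was not called without control replicate 1 (2.55, edgeR adjusted p = 0.129), without control replicate 2 (2.94, adjusted p = 0.0636) or without replicate 2 of shNRF2 in DMSO (2.48, adjusted p = 0.0794). CHAC1, at -1.73, also had few control counts and was not called without control replicate 3 (-1.30, adjusted p = 0.0626) or with limma. IGFN1, at 1.87, turned to -0.22 with limma on log2(FPKM + 1).

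SLC25A6 (3.34), AKAP17A (-3.57), GET4 (-2.55) and NDUFAF8 (-2.08) had libraries that stood apart from others of their group. SLC25A6 was at 2.41, 2.88 and 22.4 CPM in the controls and at 2.79, 3.80 and 24.3 CPM in the end state, and without control replicate 3 its departure was 1.54 (edgeR adjusted p = 0.325), and without replicate 3 of shNRF2 with GNA 1.69 (adjusted p = 0.276). AKAP17A ranged from 10.6 to 103 CPM within shNC with GNA and from 23.9 to 181 CPM within shNRF2 in DMSO. GET4 was not called without any 1 of 4 libraries, among them replicate 1 of shNRF2 in DMSO (-2.14, adjusted p = 0.116). NDUFAF8 was at 107, 35.7 and 31.9 CPM in the controls.

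Small departures lay near the threshold. Those of NFE2L2 (-0.31), NQO1 (-0.23), CCNB1 (-0.30), CDKN1A (0.24) and MCM2 (-0.44) each lost their call without at least 5 of the 12 libraries in turn, with directions kept.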

How the results depend on the processing

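Of the genes tracked by name, 177 of 203 kept direction and call in the end state under every alternative, and 13 of 26 in the departure. Leaving out 1 library at a time gave 3385 to 3853 genes higher and 3420 to 3823 lower in the end state, and 361 to 730 above and 351 to 724 below the sum. The fewest below came without replicate 2 of shNC with GNA. GNA alone lowered 2478 genes, but 1552 with library totals, 1448 with limma on log2(FPKM + 1) and 1433 on log2(FPKM + 0.1). With limma, end-state changes of at least 2-fold numbered 190 higher and 133 lower (pseudocount 1) and 332 lower (0.1), against 882 and 562, and the departure 320 above (1), 291 above and 347 below (0.1); a larger pseudocount understates the change of low genes. Genes called lower in the end state numbered 6 with limma, at either pseudocount, in the heme and iron, NF-kB and interferon lists, and 3 in the aminoacyl-tRNA synthetase, ER chaperone and drug efflux lists. The end state of HSF1 turned positive with upper-quartile factors (0.032), library totals (0.10) and limma (0.086 and 0.10), and ranged from -0.073 to 0.076 with 1 library left out, above 0 without control replicate 1, control replicate 3 or replicate 2 of shNRF2 with GNA. That of SLC7A11 did so likewise (0.036, 0.11, 0.10 and 0.11, called by limma with adjusted p = 0.0442 and 0.0457), and ranged from -0.037 to 0.022, above 0 without control replicate 1 or replicate 3 of shNRF2 with GNA. The departure of IGFN1 was -0.22 with limma on log2(FPKM + 1). The end state of SLC25A6, 0.18 with all libraries, ranged from -1.47 without replicate 3 of shNRF2 with GNA to 1.98 without control replicate 3. That of GET4 ranged from -0.62 to 0.17, the latter without control replicate 1, and that of AKAP17A from -0.28, without replicate 2 of shNRF2 with GNA, to 1.17. The cause was not tested for any of these.

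With a replicate block the end state had 3782 genes higher and 3746 lower and the departure 447 and 470. No library correlated best with its own number (0 of 12). DESeq2 called 3496 higher and 3742 lower. Depth limits genes under about 1 CPM, where a few counts decide a fold.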
